A study of Homo sapiens with 8 samples.

Results

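The RNAs described here are the H/ACA small nucleolar RNAs (snoRNAs) and the small Cajal body-specific RNAs (scaRNAs) of hTERT-RPE1, an established human cell line derived from the pigmented epithelium of the retina and kept dividing by added telomerase. They were taken as all rows of the gene table whose name starts with SNORA or SCARNA followed by a digit, a rule that reads names and not values. This gave 104 of the 13471 rows: 82 SNORA rows and 22 SCARNA rows. The name SCARNA covers several kinds of RNA, so the rows were divided by textbook class, a division made after values had been seen. Of the 22 SCARNA rows, 13 were H/ACA scaRNAs, 5 were box C/D scaRNAs (SCARNA2, SCARNA7, SCARNA9, SCARNA17 and, by its symbol as a copy of SCARNA9, SCARNA9L) and 4 were mixed scaRNAs carrying both kinds of domain (SCARNA5, SCARNA6, SCARNA10 and SCARNA12). The label H/ACA therefore did not cover 9 of the 104 rows, and these are kept apart below.

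The study sequenced rRNA-depleted RNA from interphase and mitotic hTERT-RPE1 cultures, with and without immunoprecipitation (IP) of hnRNP U, the nuclear RNA-binding protein also called SAF-A. For interphase, the treatment was 24 h of thymidine at 2 mM, which blocks DNA replication. Mitotic cells received the same thymidine treatment, medium free of thymidine for 6 h, and then STLC, an inhibitor of the spindle kinesin Eg5, overnight. Each of the 4 groups (interphase without IP, interphase with IP, mitosis without IP, mitosis with IP) had 2 libraries, all from lysates made with a detergent buffer and cleared by centrifugation. The IP antibody was anti-hnRNP U [3G6], no IP with a control antibody was analysed here, and the libraries without an IP antibody are called total RNA in the file's headers. Whether that RNA came from the same cleared lysate is not given in the sources used here. Both blocks act on the cell cycle in different ways, so mitosis and the drug treatment that produced it cannot be told apart. In bulk libraries, fewer cells that express an RNA and less of that RNA per cell cannot be told apart either.

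H/ACA RNAs fold into hairpins joined by a short hinge that holds the H box and end in a tail with the ACA box. With the proteins dyskerin (DKC1), NHP2, NOP10 and GAR1 they form particles that convert chosen uridines to pseudouridine: snoRNAs in the nucleolus guide the modification of ribosomal RNA, and scaRNAs in Cajal bodies guide that of the spliceosomal small nuclear RNAs (snRNAs). Box C/D RNAs use another set of proteins and guide 2'-O-methylation. Most of these RNAs are cut out of introns of host genes, many of which encode ribosomal or translation proteins or are long non-coding RNAs named SNHG.

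The table gives a locus for each row, and its span bears on how far a row can be read as the small RNA itself. Spans ran from 121 to 381059 bp with a median of 19823 bp, while the annotated RNAs were 121 to 420 nt long with a median of 134 nt. Only 7 rows were compact, at most 400 bp: SNORA32 (121 bp), SNORA40 (127 bp), SNORA1 (130 bp), SNORA18 (132 bp), SNORA25 (132 bp), SNORA8 (139 bp) and SNORA76C (133 bp). The other 97 rows were wide, 68 of them over 10000 bp and 15 over 100000 bp. SCARNA2 counts as wide only because its RNA is itself 420 nt long. Of the 92 rows with a measured host gene, 85 carried the very locus of the host's row, and 31 rows shared a locus with another member. No 2 rows of a shared locus held the same 8 values. Reads of the host's pre-RNA in such a row could not be separated from those of the small RNA, and the spans of the wide members are given with their changes. The hosts are known from GENCODE: 99 of 102 members with an entry lay inside a longer gene on the same strand, 67 of them in an intron in every transcript that spans them and 32 in an intron or an exon depending on the transcript. SCARNA2, SNORA76C and SNORA78 lay in none.

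The sequences of 11 members on which the results turn are shown, read 5′ to 3′ from GENCODE v29 transcripts (build GRCh38, DNA letters). In the first 10, capitals mark a match to the H box ANANNA in the middle of the RNA (40 to 60% of its length, the match with the most unpaired bases in a predicted fold where there were several) and an ACA among the last 8 letters; in SCARNA6 they mark a box C (TGATGA) and a box D (CTGA). The first 3 are compact rows from a single host, TAF1D, and had unlike values in mitosis.
SNORA40: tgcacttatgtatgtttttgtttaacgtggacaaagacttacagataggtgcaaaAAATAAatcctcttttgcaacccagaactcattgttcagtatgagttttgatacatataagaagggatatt
SNORA8: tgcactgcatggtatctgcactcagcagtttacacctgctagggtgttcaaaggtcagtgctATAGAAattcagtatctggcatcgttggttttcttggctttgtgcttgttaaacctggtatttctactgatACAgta
SNORA25: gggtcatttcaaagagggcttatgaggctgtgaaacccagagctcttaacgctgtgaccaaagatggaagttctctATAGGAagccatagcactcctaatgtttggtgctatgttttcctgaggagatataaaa
The next pair, from introns of RPL5 and SNHG17, was among the most increased in mitosis.
SNORA66: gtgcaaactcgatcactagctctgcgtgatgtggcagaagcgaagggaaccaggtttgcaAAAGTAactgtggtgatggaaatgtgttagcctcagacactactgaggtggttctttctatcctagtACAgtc
SNORA71A: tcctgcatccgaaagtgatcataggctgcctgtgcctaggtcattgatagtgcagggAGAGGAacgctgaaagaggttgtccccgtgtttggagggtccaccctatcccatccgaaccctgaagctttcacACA
SNORA12 (intron of CWF19L1) was among the lowest in the IP, and SNORA58 (intron of MRPL3) was the single member that was higher in it.
SNORA12: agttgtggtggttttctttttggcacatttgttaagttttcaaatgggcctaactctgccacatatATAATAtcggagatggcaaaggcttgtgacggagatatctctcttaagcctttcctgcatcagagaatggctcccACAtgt
SNORA58: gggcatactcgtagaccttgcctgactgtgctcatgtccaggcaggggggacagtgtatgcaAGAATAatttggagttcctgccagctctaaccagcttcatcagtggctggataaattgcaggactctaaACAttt
SCARNA16, SCARNA1 and SCARNA18 are H/ACA scaRNAs that were low in the IP and not called higher in mitosis, and SCARNA6 is a mixed scaRNA that was increased.
SCARNA16: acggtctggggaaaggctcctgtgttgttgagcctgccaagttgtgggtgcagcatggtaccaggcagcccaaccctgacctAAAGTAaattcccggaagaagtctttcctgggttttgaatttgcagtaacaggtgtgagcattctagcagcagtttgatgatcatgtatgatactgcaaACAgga
SCARNA1: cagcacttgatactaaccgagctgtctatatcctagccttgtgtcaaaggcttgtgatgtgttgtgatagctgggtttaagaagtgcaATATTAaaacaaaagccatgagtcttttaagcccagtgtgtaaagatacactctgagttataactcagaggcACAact
SCARNA18: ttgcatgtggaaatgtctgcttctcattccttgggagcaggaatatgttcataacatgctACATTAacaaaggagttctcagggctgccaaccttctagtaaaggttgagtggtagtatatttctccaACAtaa
SCARNA6: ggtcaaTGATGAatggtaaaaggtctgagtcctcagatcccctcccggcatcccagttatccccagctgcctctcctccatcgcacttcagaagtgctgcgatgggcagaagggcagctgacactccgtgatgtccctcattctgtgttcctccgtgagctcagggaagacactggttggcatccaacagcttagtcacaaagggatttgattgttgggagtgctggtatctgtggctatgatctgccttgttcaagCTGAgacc
SNORA40, SNORA8 and SNORA25 lie on the minus strand at chr11:93735111-93735236, chr11:93732361-93732499 and chr11:93730513-93730646. SNORA66 lies at chr1:92840719-92840851 on the plus strand, SNORA71A at chr20:38427309-38427442 on the minus strand, SNORA12 at chr10:100237156-100237302 on the minus strand and SNORA58 at chr3:131479097-131479233 on the minus strand. SCARNA16 lies at chr17:77089307-77089493 on the plus strand, within SEC14L1 and SNHG20. SCARNA1 lies at chr1:27834401-27834566 on the plus strand in an intron of PPP1R8, SCARNA18 at chr5:83064204-83064337 on the minus strand in an intron of TMEM167A, and SCARNA6 at chr2:233288676-233288940 on the plus strand in an intron of ATG16L1.

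The end letters followed the textbook classes for most members. An ACA stood in the last 8 letters of 77 of 82 SNORA sequences and of all 12 H/ACA scaRNA sequences, against 0 of 4 box C/D and 1 of 4 mixed scaRNAs, and against 10.1% of 5773 other GENCODE transcripts of 120 to 280 nt. The ANANNA letters, searched on the RNA strand only, were found mid-length in 73 of 82 SNORA and 11 of 12 H/ACA scaRNA sequences, but also in 53.4% of the other transcripts. SNORA25, SNORA40, SNORA44, SNORA72 and SNORA81 had no ACA in that window. For SCARNA27 and SCARNA9L no sequence was used here. Several members are near copies of each other and their reads may have been divided between them: 13 pairs among 15 members were at least 80% identical, including SNORA73A and SNORA73B (93.2%), SNORA80A and SNORA80B (91.9%), SNORA14A and SNORA14B (91.1%), and SNORA71A to SNORA71D (83.1 to 90.3%).

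Values are FPKM (fragments per kilobase of transcript, scaled to the mapped fragments of the library), a level scaled for length, with no depth or count behind it in the files used here. The median member stood at 142 and 169 FPKM in the 2 interphase libraries without IP, 434 and 303 in mitosis without IP, 95.7 and 44.1 in the interphase IP and 184 and 82.9 in the mitotic IP. The members held 3.27 and 3.76% of all FPKM in interphase and 8.52 and 8.35% in mitosis without IP. In both interphase libraries without IP the 4 highest members were SNORA73A and SNORA73B, the U17 snoRNAs, which act in cleavage of the ribosomal RNA precursor rather than as pseudouridine guides, and SNORA63 and SNORA64. SNORA73A reached 3609.8 and 5092 FPKM in interphase and 14155 and 17652 in mitosis without IP. The lowest was SCARNA9L, at 1.80 and 2.42 FPKM in interphase. As checks of the libraries, 6 of 6 mitotic genes were higher and 39 of 39 histone rows lower in mitosis without IP, and KRT8 and KRT18, keratins of this epithelium, stood between 18.5 and 79.2 FPKM in all 8 libraries. MITF and OTX2 stood at 3.33 FPKM or above, PMEL at 0.144 or below, and 5 of the 10 listed epithelium markers (RPE65, RLBP1, BEST1, TYR and CDH1) and 4 of 4 markers of other cells were not analysed here.

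Replicates of the members stood further apart than those of most rows. In the interphase IP, replicate 1 was above replicate 2 for 101 of 104 members, by a median of 2.13-fold, and in the mitotic IP for 95 of 104, by 2.36-fold. Without IP, replicate 1 was higher for 89 of 104 members in mitosis (1.49-fold) but for only 34 of 104 in interphase (0.872-fold). Over all 13471 rows the same median ratios lay between 0.994 and 1.01. The largest gaps were those of SNORA32, at 55.2 and 4.55 FPKM in the interphase IP, and of SNORA78, at 37.5 and 1.55 in the mitotic IP. In mitosis without IP replicate 2 was the higher one for 4 of 4 mixed scaRNAs. Nothing in the sources used here says that replicates were separate cultures, so p-values measure only the spread between these libraries. Calls were followed without single libraries for 39 named results, and losses are given for these. For other members, among them SNORA73A, SNORA73B, SCARNA2, SCARNA10 and SCARNA13, calls were not followed member by member.

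**Figure D1:**
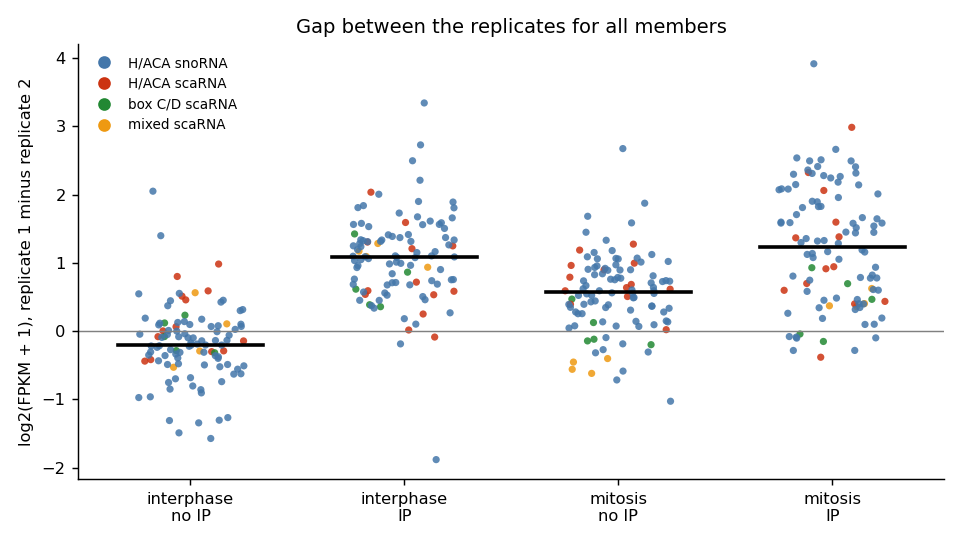
Gap between the 2 replicates of each group, as replicate 1 minus replicate 2 in log2(FPKM + 1), with 1 point per member and a bar at the median of the 104. In both IP groups nearly all points lie above 0 (101 and 95 of 104), in mitosis without IP 89, and in interphase without IP 34.

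The first comparison asked how these RNAs differ between mitosis and interphase in RNA without IP. All called H/ACA snoRNAs and all box C/D and mixed scaRNAs were higher in mitosis, while the H/ACA scaRNAs had calls in both directions. Of the 104 members, 47 were called higher and 2 lower (limma adjusted p below 0.05), beside 26.2% of all rows called higher and 25.5% called lower (51.7% in either direction). The median change in log2(FPKM + 1) was 1.30 for members and -0.00 over all rows. Of the 82 SNORA rows 37 were higher and 0 lower (median 1.37), of the 9 box C/D or mixed scaRNAs 9 were higher (median 2.01), and of the 13 H/ACA scaRNAs 1 was higher and 2 lower (median -0.25). The 67 SNORD rows, the box C/D snoRNAs, stood at 39 higher and 3 lower with a median of 2.02. No test was made of the difference between these classes. Both mitotic libraries lay above both interphase libraries for 82 of the members and below them for 4, against 39.5% and 39.4% of all rows. The count of 47 rested on single libraries and fell when any library of these groups was left out. It was 31 after quantile normalization, beside 3488 of all 13471 rows. The median stayed between 0.97 and 1.61 when any library was left out.

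**Figure D2:**
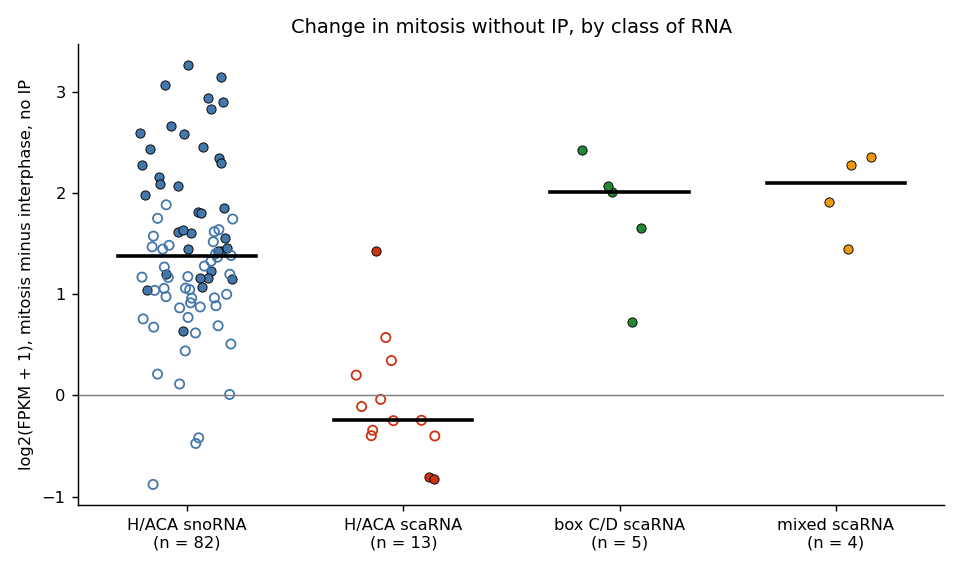
Change between mitosis and interphase without IP in log2(FPKM + 1), 1 point per member, grouped by class. Filled points passed limma at adjusted p below 0.05, open points did not, and bars mark medians (1.37, -0.25, 2.01 and 2.09 from left to right).

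The compact rows have loci no longer than single snoRNAs, and 6 of the 7 lie in TAF1D, the gene of a subunit of the RNA polymerase I factor SL1. These 6 lie in an intron or an exon of TAF1D depending on the transcript. Host reads in these rows could therefore not be separated from those of the snoRNA either. SNORA40 had the largest rise: 14.7 and 17.5 FPKM in interphase and 179.5 and 148 in mitosis, a 9.60-fold difference (3.26 ± 0.15 SE on the log2 scale, adjusted p = 1.88e-06). The 2 mitotic values lay far above both interphase values. SNORA8 stood at 239 and 399.7 FPKM in interphase and 1908 and 1514 in mitosis (5.49-fold, log2 2.46 ± 0.55, adjusted p = 0.00562). SNORA25 rose less, from 85.5 and 99.9 to 129.8 and 161 FPKM (log2 0.64 ± 0.19, adjusted p = 0.02), and the call was lost without interphase replicate 1 (0.117) or mitosis replicate 2 (0.12). The 3 changes, all from 1 host, thus ranged from 0.64 to 3.26.

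The other compact members did not pass the test. SNORA18 stood at 506 and 584 FPKM in interphase and 1334 and 841 in mitosis (log2 0.96, adjusted p = 0.0966), and SNORA1 at 119 and 152 in interphase and 267 and 197 in mitosis (log2 0.77, adjusted p = 0.162). For both, the mitotic values lay above the interphase values without overlap. SNORA32, at 76.7 and 17.8 FPKM in interphase and 220.2 and 72.8 in mitosis, overlapped between groups, and its replicates differed widely in both. SNORA76C, outside any host, stood at 174 and 186 FPKM in interphase and 334 and 178 in mitosis and overlapped as well (log2 0.44, adjusted p = 0.556).

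**Figure D3:**
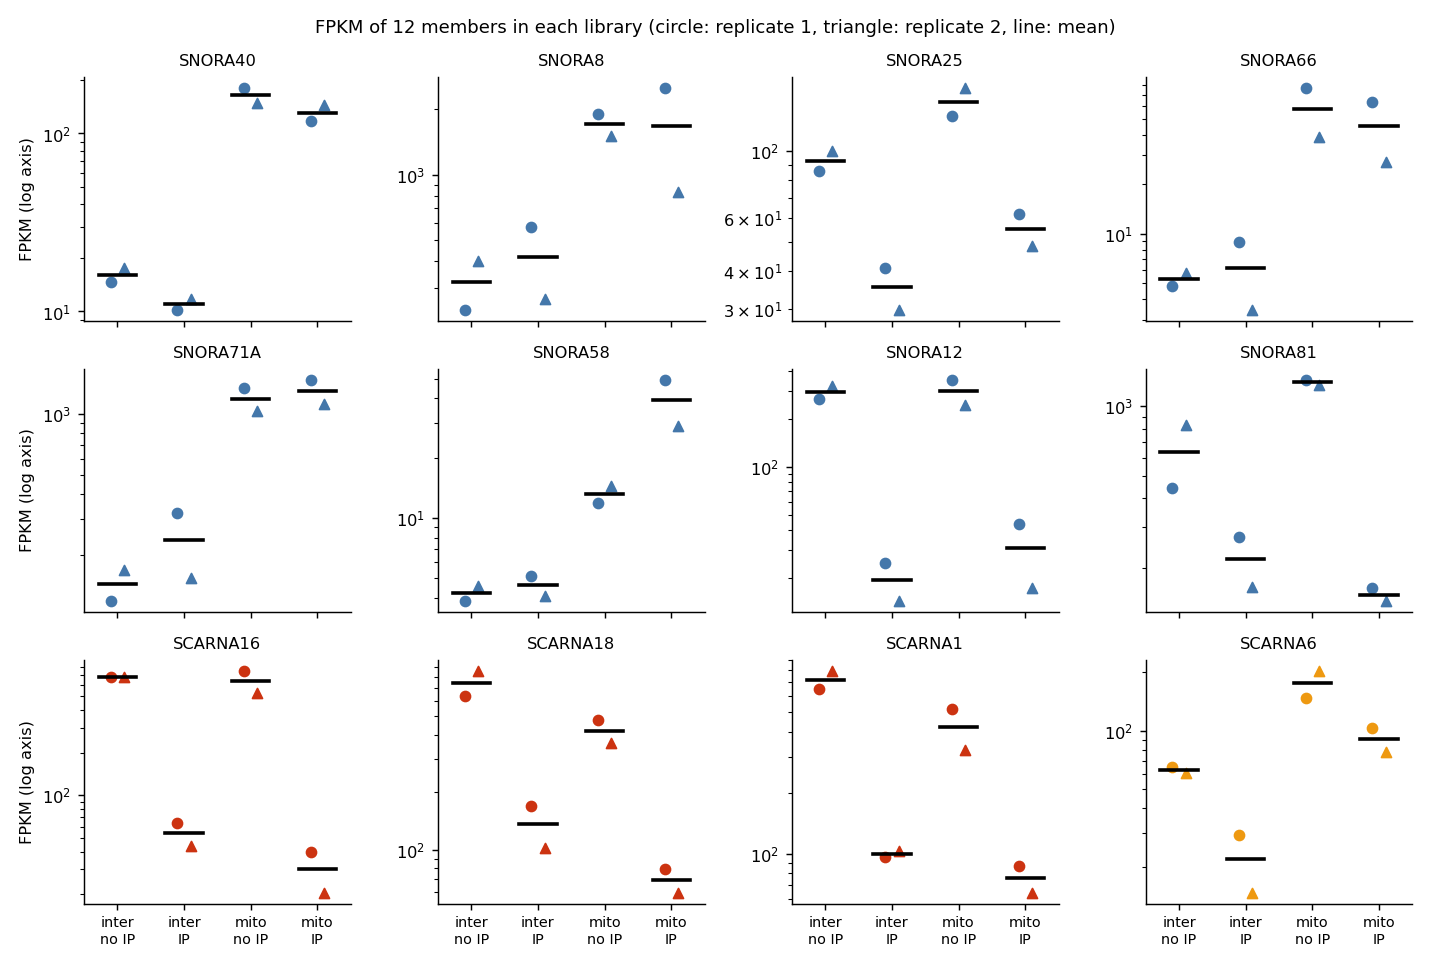
FPKM on log axes of 12 members in the 4 groups (circle, replicate 1; triangle, replicate 2; line, mean); blue, H/ACA snoRNA; red, H/ACA scaRNA; orange, mixed scaRNA. SNORA40, SNORA8, SNORA66 and SNORA71A are high in both mitotic groups, SNORA12, SCARNA16, SCARNA18 and SCARNA1 are low in both IP groups, and SNORA58 is highest in the mitotic IP.

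Among wide rows the largest rises were those of SNORA66, SNORA71A, SNORA71D and SNORA68. SNORA66, inside RPL5 (locus 129486 bp), stood at 4.83 and 5.76 FPKM in interphase and 76.6 and 38.6 in mitosis (8.83-fold, log2 3.14 ± 0.47, adjusted p = 0.000814). SNORA71A, from SNHG17 (14784 bp), went from 117 and 168 to 1347 and 1032 FPKM (8.35-fold, log2 3.06 ± 0.36, adjusted p = 0.000231). All mitotic values of both were above all interphase values. The near copies SNORA71B, SNORA71C and SNORA71D of the same host were also called higher (log2 2.59, 1.80 and 2.94). SNORA68 (locus 3447 bp) stood at 130.3 and 257 FPKM in interphase and 1323 and 1413 in mitosis (log2 2.89 ± 0.51, adjusted p = 0.00176). SNORA73A, the highest member, showed 1.88 ± 0.80 with no overlap between groups and did not pass (adjusted p = 0.0773), whereas SNORA73B, at 1949 and 2462 FPKM in interphase and 9775 and 8821 in mitosis, did (log2 2.08, adjusted p = 0.0172). The 45 SNORA rows without a call had changes between -0.88 (SNORA11B) and 1.88 (SNORA73A).

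The scaRNAs that carry box C/D domains were all called higher, beside 26.2% of all rows. Not all of them kept the call when any library of these groups was left out, or after quantile normalization. Their median stayed between 1.95 and 2.11 with a library left out and was 1.84 after quantile normalization. SCARNA2, which guides methylation of the U2 snRNA and has a locus of its own length, stood at 239.9 and 221 FPKM in interphase and 1182 and 1307 in mitosis (5.38-fold, log2 2.43 ± 0.44, adjusted p = 0.00191). SCARNA10, the U85 RNA with both kinds of domain, went from 292 and 422 to 1373 and 2110.0 FPKM (log2 2.27 ± 0.41, adjusted p = 0.00186), while its host NCAPD2, a condensin subunit, also rose (log2 1.51). SCARNA5 and SCARNA6, neighbours in ATG16L1, stood at 2.36 and 1.45 on the log2 scale and their host at 0.43. SCARNA12 in PHB2 showed 1.91, SCARNA17 2.01, SCARNA9 in CEP295 2.07, SCARNA9L 1.65 and SCARNA7 in KPNA4 0.72. All 9 had both mitotic values above both interphase values, beside 39.5% of all rows.

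The H/ACA scaRNAs were spread around 0. SCARNA18 stood at 635 and 861 FPKM in interphase and 477 and 363 in mitosis (log2 -0.83 ± 0.28, adjusted p = 0.0329). SCARNA1, a guide for U2, stood at 649 and 794 FPKM in interphase and 519 and 323 in mitosis (log2 -0.81 ± 0.24, adjusted p = 0.0218). Both mitotic values were the lower ones in each, but neither call held without interphase replicate 2 (adjusted p 0.182 and 0.121) or without mitosis replicate 2 (0.17 and 0.154), and that of SCARNA18 not after quantile normalization (0.0578). The 1 H/ACA scaRNA that rose was SCARNA13, a tandem RNA of 275 nt in the non-coding gene SNHG10 (locus 1961 bp), at 242 and 256 FPKM in interphase and 677 and 668 in mitosis (log2 1.43 ± 0.24, adjusted p = 0.00136). The remaining 10 had no call: SCARNA22 (0.57), SCARNA21 (0.34), SCARNA4 (0.20), SCARNA8 (-0.04), SCARNA16 (-0.11), SCARNA23 (-0.25), SCARNA3 (-0.25), SCARNA27 (-0.34), SCARNA20 (-0.40) and SCARNA14 (-0.40, all log2). The median of the 13 was 0.14 in the replicate 1 pair and -0.36 in the replicate 2 pair, so its sign was not shared by the pairs. It was -0.69 without mitosis replicate 1, 0.20 without mitosis replicate 2 and 0.05 without interphase replicate 1.

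The changes of members did not follow those of the genes that hold them in rank. Across 92 members with a measured host, Spearman's rho between the member's and the host's change in mitosis was -0.00, given as a description since members share hosts and libraries. Each member was set against 1 host, the first by name. SNHG20 for SCARNA16, SNHG3 for SNORA73A and SNORA73B, and SNHG4 for SNORA74A were thus left out of these pairs. The member's change exceeded its host's in 77 of 92, and the median change of all 73 measured hosts was 0.04. The median member had 6.67 times the FPKM of its host in interphase and 13.4 times in mitosis without IP, and 13 and 7 members were below their host. In SNHG12, a spliced non-coding host, SNORA16A, SNORA44 and SNORA61 showed 1.52 to 2.07 while the host row fell by 1.20 (adjusted p = 0.0054). In SNHG17 the 4 SNORA71 members showed 1.80 to 3.06 and the host 0.72. In TAF1D the 6 members ran from 0.64 to 3.26 around a host change of 1.50 (adjusted p = 5.5e-05). The host TAF1D has a locus apart from those of its 6 compact snoRNA rows in the table. Of the 13 shared hosts, CNOT1 alone had a change (1.48) above that of each of its members, SNORA46 (0.76) and SNORA76A (0.67).

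**Figure D4:**
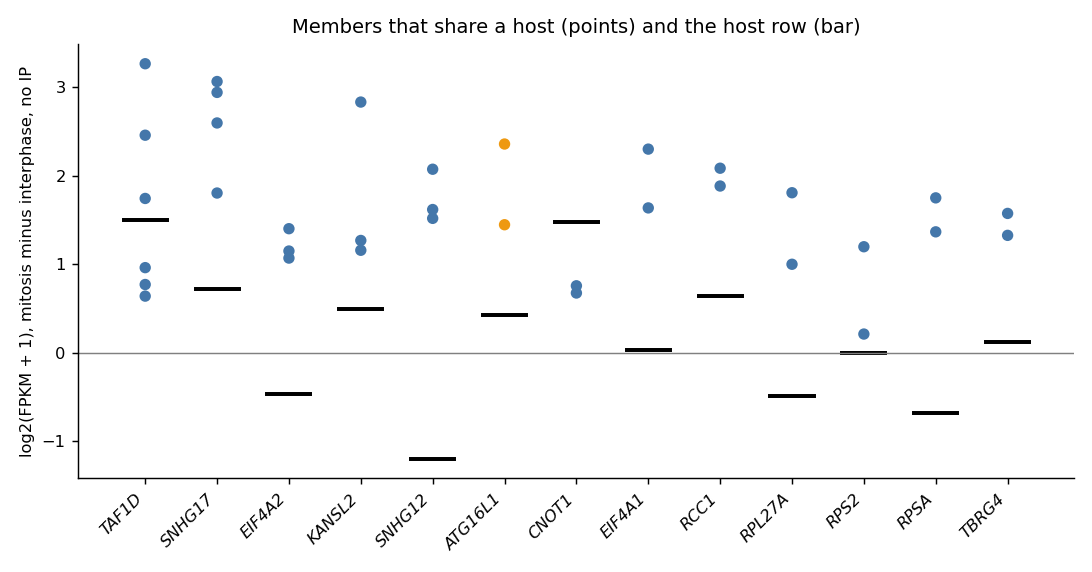
Change between mitosis and interphase without IP in log2(FPKM + 1) for the members of each of the 13 hosts with more than 1 member (points; blue, H/ACA snoRNA; orange, mixed scaRNA) and for the host row (bar). In SNHG12 the 3 members lie between 1.52 and 2.07 and the host at -1.20; in TAF1D the 6 members run from 0.64 to 3.26.

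The second comparison asked which of these RNAs were recovered with hnRNP U. In interphase most members stood lower in the IP than without it. The count called lower was 43 of 104, near the 37% of all rows called lower, but 0 members were called higher while 37.6% of all rows were (74.6% of rows were called in either direction). At an unadjusted p below 0.05, 49 of 104 members passed, all of them lower, beside 10288 of 13471 rows in either direction. The median change was -1.12 for members and 0.02 over all rows, and it was -0.50 in the replicate 1 pair and -1.79 in the replicate 2 pair. Both IP values were below both values without IP for 73 members, beside 42.8% of all rows. The count fell and the median was -0.55 without IP replicate 2, and the count rose and the median was -1.73 without IP replicate 1. The count also fell without either library of the group without IP. FPKM in the IP is relative to another total: all rows summed to between 1017310 and 1249970 FPKM without IP and between 321539 and 459661 with IP, and members held 7.48 and 3.57% of the sum in the interphase IP beside 3.27 and 3.76% without IP. The share of the sum was thus not lower in IP replicate 1, although the FPKM of most members were. With quantile normalization, 28 members were lower and 2 higher, beside 4569 and 5562 of all 13471 rows.

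The H/ACA scaRNAs had the lowest median of the classes. In the interphase IP 11 of 13 were called lower with a median of -2.19, beside 26 of 82 SNORA rows (-1.05), 6 of 9 box C/D or mixed scaRNAs (-1.12) and 13 of 67 SNORD rows (-0.54). Of all rows, 37% were called lower. The shares of SNORA rows (31.7%) and SNORD rows (19.4%) lay below this. Those of H/ACA scaRNAs (84.6%) and box C/D or mixed scaRNAs (66.7%) lay above it. For SNORA rows and box C/D or mixed scaRNAs this order was not kept with every library left out. The SNORA median was -1.67 without IP replicate 1 and -0.39 without IP replicate 2. That of box C/D or mixed scaRNAs was -1.73 and -0.56, and that of H/ACA scaRNAs -2.79 and -1.59. The difference between classes was not tested. SNORA12 (locus 35386 bp) stood at 265 and 320.3 FPKM without IP and 24.9 and 14.3 in the IP, 14.7-fold lower (log2 -3.87 ± 0.40, adjusted p = 2.29e-05). SCARNA14 (locus 20047 bp) stood at 143 and 159 FPKM without IP and 9.59 and 9.47 in the IP (14.4-fold lower, log2 -3.85 ± 0.76, adjusted p = 0.00147). SCARNA16, a guide for the U1 snRNA (locus 128457 bp), stood at 680.2 and 679 without IP and 64.2 and 44.1 in the IP (12.6-fold lower, log2 -3.65 ± 0.30, adjusted p = 6.58e-06). In each of these 3 the groups were far apart. SNORA11B was lower too (84.6 and 87.7 against 15.3 and 3.93 FPKM, adjusted p = 0.00588), but not without IP replicate 2 (0.0585).

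In the interphase IP 5 of 7 compact members were called lower and 0 higher, beside 37% and 37.6% of all rows. SNORA25 was the firmest, at 85.5 and 99.9 FPKM without IP and 41.1 and 29.8 with IP (log2 -1.37 ± 0.19, adjusted p = 0.000145). SNORA1 (-1.40), SNORA18 (-1.37), SNORA76C (-1.54) and SNORA40 (-0.51) were called lower, and each lost the call when interphase replicate 2 without IP was left out (adjusted p 0.0772, 0.0808, 0.111 and 0.0907). SNORA1, SNORA18 and SNORA76C also lost it without IP replicate 2 (0.0903, 0.131 and 0.191), SNORA40 and SNORA76C without IP replicate 1 (0.0732 and 0.055), and SNORA76C without replicate 1 of the group without IP (0.0934). After quantile normalization SNORA18 stood at -0.47 (0.374) and SNORA76C had no call (0.0933), and with a pseudocount of 10 neither SNORA76C (0.0508) nor SNORA40 (0.0507) had one. SNORA32 (-1.11) and SNORA8 (0.34) had no call. SNORA8 was the 1 compact member with a positive change, at 239 and 399.7 FPKM without IP and 571 and 268 with IP, overlapping groups.

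In mitosis 60 members were called lower in the IP and 1 higher, beside 31.7% and 32.8% of all rows (64.5% in either direction), and the median change was -1.49 against 0.01 over all rows. Both IP values were below both values without IP for 69 members and above them for 1, beside 40.1% and 41.4% of all rows. The replicate 1 pair gave -1.06 and the replicate 2 pair -1.88. The count fell without replicate 1 of the group without IP or without IP replicate 2, and rose without IP replicate 1. With a library left out the median ran from -2.06 to -0.76. The count was 39 after quantile normalization, beside 4086 of all 13471 rows. Members held 11.2 and 6.33% of the FPKM sum in the mitotic IP beside 8.52 and 8.35% without IP, so that share was higher in IP replicate 1 and lower in IP replicate 2. By class, 41 of 82 SNORA rows (median -1.39), 10 of 13 H/ACA scaRNAs (-2.09), 9 of 9 box C/D or mixed scaRNAs (-1.60) and 28 of 67 SNORD rows (-1.21) were lower. SCARNA16 had the largest decrease of all members, 751 and 529 FPKM without IP and 39.6 and 20.6 in the IP (21.3-fold lower, log2 -4.41 ± 0.30, adjusted p = 9.08e-06). SNORA53, inside SLC25A3 (8376 bp), stood at 1104 and 926 without IP and 77.0 and 71.8 in the IP (13.4-fold lower, log2 -3.75 ± 0.26, adjusted p = 9.06e-06). SNORA12 stood at 352 and 245 FPKM without IP and 44.0 and 17.5 in the IP (log2 -3.35 ± 0.40, adjusted p = 9.85e-05). These decreases exceeded the gap between replicates in both groups.

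Among compact members SNORA18 (-1.76), SNORA1 (-1.68) and SNORA25 (-1.39) were lower in the mitotic IP, SNORA18 not after quantile normalization (adjusted p 0.105). SNORA11B was also called (-3.07) and lost the call without IP replicate 2 (adjusted p 0.0674) or without replicate 1 of the group without IP (0.075). SNORA73A, at 14155 and 17652 FPKM without IP and 3069 and 2325 in the IP, was lower with log2 -2.56 ± 0.80 (adjusted p = 0.0195), and its near copy SNORA73B with -2.18. In contrast, the 4 SNORA71 members had no call in either IP comparison, with changes between -0.53 and 0.66. SNORA71A for one stood at 1347 and 1032 FPKM without IP and 1480.3 and 1124 with IP in mitosis. Of all 104 members, 38 were called lower in the IP in both phases, beside 23% of all rows. A further 5 were called lower in interphase with no call in mitosis (11.5% of all rows), 22 in mitosis with no call in interphase (4.95%), and 38 had no call in either (14.9%). These counts do not show a difference between phases, for which the test is given below. The remaining member was SNORA58.

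**Figure D5:**
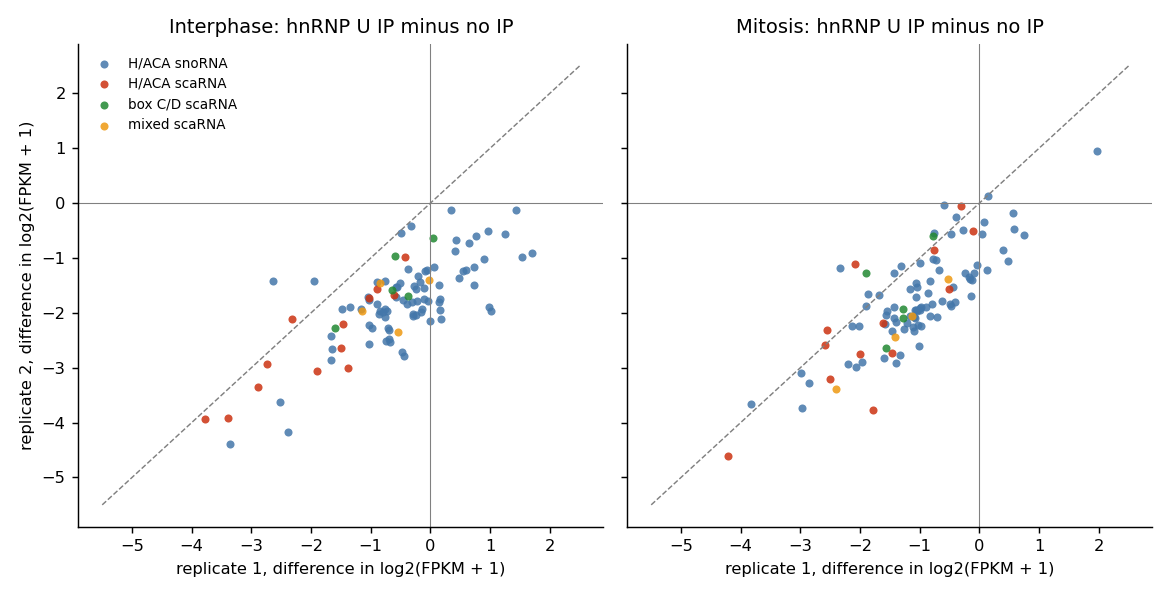
Difference between IP and no IP in log2(FPKM + 1) for each member, replicate 1 on the horizontal and replicate 2 on the vertical axis, in interphase (left) and mitosis (right); the dashed line marks equal values. Most points lie below the line: the median is -0.50 in replicate 1 and -1.79 in replicate 2 in interphase, and -1.06 and -1.88 in mitosis. The point at the upper right in mitosis is SNORA58.

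SNORA58 was the exception, the 1 member higher in an IP. It stood at 3.84 and 4.58 FPKM in interphase without IP and 5.13 and 4.10 with IP, and at 11.9 and 14.6 in mitosis without IP and 49.4 and 29.1 with IP. Both mitotic IP values were above all others, and the IP effect in mitosis was 2.75-fold (log2 1.46 ± 0.23, adjusted p = 0.000489). Its row spans 40816 bp, the locus of its host MRPL3, a mitochondrial ribosomal protein gene, and its FPKM were among the lowest of the members. The MRPL3 row moved the same way: it stood at 54.9 ± 3.46 FPKM in mitosis without IP and 107 ± 6.41 with IP (SD, n = 2), a log2 change of 0.94 (limma adjusted p = 0.00016), and its IP effect was also higher in mitosis (log2 difference 1.09, adjusted p = 0.00114). The SNORA58 row held 0.0920 of the host's FPKM in interphase without IP and 0.368 in the mitotic IP. Reads of the host in this row could not be told apart from those of the snoRNA, and their part in the result was not tested.

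The third comparison tested whether the IP effect differed between the phases. Of 104 members 1 was called higher and 2 lower, beside 27.2% and 19.9% of all rows (47.1% in either direction). An unadjusted p below 0.05 was reached by 7 members, beside 7249 of all 13471 rows. SNORA58 was the higher one (log2 difference 1.35 ± 0.32, adjusted p = 0.00857). SNORA81, in EIF4A2, was the first of the lower ones, with 442 and 828 FPKM in interphase and 1304 and 1237 in mitosis without IP, but 272 and 166 and 164 and 144 with IP (log2 difference -1.54 ± 0.46, adjusted p = 0.0234). SNORA34, in KANSL2, was the other (log2 difference -1.12 ± 0.38, adjusted p = 0.0399); it stood at 591 and 451 FPKM in mitosis without IP and 162 and 142 with IP. SNORA58 kept its call with each library left out; the 2 lower calls were lost without interphase replicate 1 of either kind, mitosis replicate 1 without IP or mitosis IP replicate 2 (adjusted p 0.0594 to 0.127). SNORA34 also lost it without interphase replicate 2 of the group without IP (0.0548) or mitosis IP replicate 1 (0.0578), and SNORA81 without mitosis replicate 2 of the group without IP (0.0502). The counts of higher and lower calls both moved when a library was left out. The median of -0.25 turned to 0.33 without interphase IP replicate 1, 0.03 without mitosis replicate 1 of the group without IP and 0.34 without mitosis IP replicate 2.

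The last comparison set mitosis against interphase within the IP. There 33 members were higher and 3 lower, beside 35.8% and 25.6% of all rows (61.4% in either direction), with a median of 1.05 against 0.08; the share called higher was thus below that of all rows. SNORA40 again had the largest rise (10.2 and 11.8 FPKM in interphase, 118 and 144 in mitosis, log2 3.46 ± 0.15, adjusted p = 1.28e-06). SNORA69, in RPL39, stood at 7.61 and 5.26 FPKM in interphase and 56.6 and 69.2 in mitosis (log2 3.11), SNORA58 at log2 2.80, SNORA71D at 2.80 and SNORA66 at 2.67. SNORA8 (1.88) and SNORA25 (0.63) were called but not without interphase IP replicate 2 or mitosis IP replicate 1 (adjusted p 0.0918 to 0.125), and SNORA25 stood at 0.37 with no call after quantile normalization (0.133). The 3 lower members were SNORA53 at 209 and 131 FPKM in interphase and 77.0 and 71.8 in mitosis (log2 -1.14, adjusted p = 0.00419), SCARNA18 (-0.93) and SCARNA16 (-0.87). The latter 2 lost their calls without interphase IP replicate 1 or mitosis IP replicate 2 (adjusted p 0.0964 to 0.232). Both mitotic IP values were above both interphase IP values for 43 members and below them for 6, beside 44.6% and 34.6% of all rows. The count of 33 fell without interphase IP replicate 2 or mitosis IP replicate 1. It rose without interphase IP replicate 1 or mitosis IP replicate 2, and the member share then lay above that of all rows. The median ran from 0.44 to 1.64 over these. By class, 23 of 82 SNORA rows, 2 of 13 H/ACA scaRNAs and 8 of 9 box C/D or mixed scaRNAs were higher.

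The mRNAs of the H/ACA machinery moved in both directions, and the counts below stand beside 26.2% of all rows higher and 25.5% lower in mitosis without IP, 37% lower in the interphase IP and 31.7% lower in the mitotic IP. Of the 4 core protein genes, DKC1, the pseudouridine synthase, and GAR1 were higher in mitosis without IP (0.55 and 0.60 on the log2 scale), NOP10 was lower (-1.20) and NHP2 had no call (-0.27). NOP10 stood at 168 and 177 FPKM in interphase and 67.7 and 82.6 in mitosis. In the interphase IP 4 of 4 were lower, NOP10 (-3.51) and NHP2 (-2.73) the most, and in the mitotic IP 3 of 4 (GAR1 at 0.21). Of 9 assembly and trafficking genes 5 rose and 1 fell in mitosis without IP (NAF1, NOLC1, RUVBL1, RUVBL2 and TCOF1 up, PIH1D1 down), of 7 Cajal body genes 4 rose (COIL, GEMIN5, TGS1 and WRAP53), of 5 genes of RNA end maturation 2 rose (EXOSC10 and PARN), and of 12 stand-alone pseudouridine synthases 3 rose and 3 fell. COIL, the gene of coilin, the scaffold protein of Cajal bodies, exceeded its level without IP in either phase (1.21 and 1.25), while WRAP53, whose protein carries scaRNAs to Cajal bodies, was lower (-1.09 and -0.57). Telomerase RNA (TERC), which has an H/ACA domain but another name, stood at 50.5 and 41.0 FPKM in interphase and 59.6 and 63.0 in mitosis without IP, and at 12.4 and 8.04 and 19.2 and 11.8 with IP. TERC had no call between phases without IP (log2 0.42, adjusted p = 0.168) and was lower in the IP in interphase (log2 -2.08 ± 0.24, adjusted p = 4.48e-05) and in mitosis (log2 -1.96 ± 0.24, adjusted p = 0.000113).

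The locus spans of the wide rows, each given with the row's change in mitosis without IP on the log2 scale, overlapped between called and uncalled snoRNAs. Called higher, from the largest change, were SNORA66 (129486 bp, 3.14), SNORA71A (14784 bp, 3.06), SNORA71D (14784 bp, 2.94), SNORA68 (3447 bp, 2.89), SNORA2B (29042 bp, 2.83), SNORA22 (123801 bp, 2.66), SNORA71B (14784 bp, 2.59), SNORA69 (5156 bp, 2.58) and SNORA41 (3336 bp, 2.43). Then came SNORA55 (16037 bp, 2.34), SNORA67 (17015 bp, 2.30), SNORA7B (16606 bp, 2.28), SNORA28 (11023 bp, 2.16), SNORA73B (33254 bp, 2.08), SNORA16A (28838 bp, 2.07), SNORA49 (130547 bp, 1.98), SNORA80E (21400 bp, 1.85) and SNORA45A (7425 bp, 1.81). Smaller rises were those of SNORA71C (14784 bp, 1.80), SNORA48 (17015 bp, 1.64), SNORA27 (5011 bp, 1.61), SNORA37 (73188 bp, 1.60), SNORA77 (117295 bp, 1.55), SNORA80A (101191 bp, 1.46), SNORA58 (40816 bp, 1.45), SNORA52 (2941 bp, 1.43) and SNORA80B (8184 bp, 1.42). The next calls were SNORA20 (29445 bp, 1.23), SNORA38 (17105 bp, 1.20), SNORA34 (29042 bp, 1.16), SNORA51 (5862 bp, 1.16), SNORA4 (23124 bp, 1.15), SNORA81 (23124 bp, 1.07) and SNORA65 (3759 bp, 1.04). The loci of these 34 risers ran from 2941 to 130547 bp. Among H/ACA snoRNAs without a call, the largest changes were those of SNORA73A (33254 bp, 1.88), SNORA62 (5853 bp, 1.75), SNORA72 (3881 bp, 1.64), SNORA61 (28838 bp, 1.62), SNORA5C (11648 bp, 1.57), SNORA44 (28838 bp, 1.52), SNORA13 (1976 bp, 1.48), SNORA26 (1685 bp, 1.47) and SNORA9 (3633 bp, 1.44). Below these stood SNORA63 (23124 bp, 1.40), SNORA75 (9747 bp, 1.38), SNORA6 (5853 bp, 1.36), SNORA5A (11648 bp, 1.33), SNORA60 (4268 bp, 1.28), SNORA2A (29042 bp, 1.27), SNORA10 (2766 bp, 1.20), SNORA57 (10874 bp, 1.17) and SNORA19 (45794 bp, 1.17). Further down stood SNORA24 (1062 bp, 1.17), SNORA31 (7814 bp, 1.06), SNORA54 (47948 bp, 1.06), SNORA47 (71645 bp, 1.05), SNORA38B (26376 bp, 1.04), SNORA45B (7425 bp, 1.00), SNORA30 (40989 bp, 0.98), SNORA23 (63506 bp, 0.96) and SNORA21 (3733 bp, 0.91). Lower again were SNORA74B (51138 bp, 0.89), SNORA74A (57926 bp, 0.87), SNORA14A (79573 bp, 0.86), SNORA46 (114408 bp, 0.76), SNORA14B (19599 bp, 0.69), SNORA76A (114408 bp, 0.67), SNORA79 (45779 bp, 0.62), SNORA33 (2996 bp, 0.51) and SNORA64 (2766 bp, 0.21). At the lower end were SNORA78 (509 bp, 0.11), SNORA12 (35386 bp, 0.01), SNORA43 (15613 bp, -0.42), SNORA53 (8376 bp, -0.47) and SNORA11B (111384 bp, -0.88). Among scaRNAs the spans were also wide. The upper changes were those of SCARNA2 (420 bp, 2.43), SCARNA5 (44104 bp, 2.36), SCARNA10 (37835 bp, 2.27), SCARNA9 (68707 bp, 2.07), SCARNA17 (381059 bp, 2.01), SCARNA12 (5402 bp, 1.91), SCARNA9L (17331 bp, 1.65) and SCARNA6 (44104 bp, 1.45). The middle ones were SCARNA13 (1961 bp, 1.43), SCARNA7 (70594 bp, 0.72), SCARNA22 (110812 bp, 0.57), SCARNA21 (27953 bp, 0.34), SCARNA4 (21400 bp, 0.20), SCARNA8 (49806 bp, -0.04), SCARNA16 (128457 bp, -0.11) and SCARNA23 (303039 bp, -0.25). The lowest were SCARNA3 (262419 bp, -0.25), SCARNA27 (375818 bp, -0.34), SCARNA20 (214896 bp, -0.40), SCARNA14 (20047 bp, -0.40), SCARNA1 (20932 bp, -0.81) and SCARNA18 (24608 bp, -0.83).

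Length, GC content and locus span had little rank relation to the changes. Across the 82 SNORA rows Spearman's rho with the change in mitosis without IP was 0.02 for RNA length (121 to 249 nt), 0.00 for GC content and -0.02 for locus span. With the change in the IP, rho was 0.06, 0.07 and 0.04 in interphase and -0.10, 0.13 and -0.10 in mitosis, in the same order. These are descriptions across genes that share libraries. Compact and wide rows gave like medians: 0.96 and 1.33 in mitosis without IP, -1.37 and -1.12 in the interphase IP, and -1.39 and -1.50 in the mitotic IP, for 7 and 97 members.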

How the data were processed

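RNA of 8 libraries (4 groups of 2) was measured. The deposited table holds FPKM per gene and library, and the authors' deposited ratio columns (IP over total RNA) were recomputed from the FPKM with a largest relative difference of 5.1e-15 and not used further. The submitters' processing notes name TopHat, StringTie and the builds hg38 and hg19; versions and how reads in overlapping genes were assigned are not given in the sources used here. FPKM carry no counts, so depth is unknown and no counting interval is given. From the FPKM, log2(FPKM + 1) was fitted with limma 3.58.1 (R 4.3.3) as 4 group means over all 13471 rows and 8 libraries, with a trended prior. P-values were adjusted by Benjamini-Hochberg over all rows per comparison, and 0.05 was the limit for a call. A fold change is a difference of log2(FPKM + 1), so for low rows it is smaller than the change in FPKM. On data simulated for the interphase IP comparison over 13471 rows, the fit recovered 81 of 100 rows changed by 1 on the log2 scale and 97 of 100 changed by 2, with 12 false calls. The changed rows were drawn from all rows, with independent noise and no change in the rest. The SD of the log2 gap between replicates was 0.55 to 0.87 for members and 0.21 to 0.29 over all rows. The recovery rates therefore do not carry over to the members. Named members were, per comparison and direction, up to 8 compact and up to 4 wide members with the largest change among calls whose replicate pairs shared a sign, all SCARNA members, the 5 most abundant compact members and those with the largest replicate gap; other members and genes were named after their values were seen, the pathway and host lists apart. Members and gene lists were chosen with earlier results of these data known, and the class division after values were seen. Hosts and sequences come from GENCODE v29 (GRCh38), folds from ViennaRNA 2.7.2, and tables and figures from pandas 2.3.3 and matplotlib 3.10.9. Alternatives were the pseudocount, low-value filters, other normalizations, an untrended prior, a replicate block, compact rows alone and leaving out each library.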

Additional observations from a re-analysis of the deposited data

Results flagged for a closer look

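For 3 members the effect of the hnRNP U IP differed between mitosis and interphase by limma's test of the difference itself. SNORA58 had the higher effect in mitosis (log2 difference 1.35), with both mitotic IP libraries above all other libraries; the row of its host MRPL3, whose locus it carries, had a log2 difference of 1.09 (adjusted p = 0.00114). The effect was lower in mitosis for SNORA81 (log2 difference -1.54) and SNORA34 (log2 difference -1.12). Both of these had more FPKM in mitosis than in interphase without IP, and both lost the call when any of several single libraries was left out.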

How the results depend on the processing

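Of 585 values of named members under the alternatives, 539 kept their direction and call, 46 lost the call and 0 reversed; 23 of 39 named results kept the call under every alternative run. The named results had been chosen as the largest changes among calls whose replicate pairs shared a sign. Their kept calls therefore do not measure how firm the other calls were. With quantile normalization, 28 members were lower and 2 higher in the interphase IP, and 39 lower and 2 higher in the mitotic IP. In mitosis 31 were higher and 1 lower without IP, and 6 lower within the IP. Over all 13471 rows these counts were, in the same order, 4569 and 5562, 4086 and 4507, 3488 and 3385, and 4009. With a pseudocount of 10, 5 members had a lower IP effect in mitosis, beside 2763 of all 13471 rows. Among compact members alone, which are 7 rows, 5 were lower in the interphase IP, and 3 lower and 0 higher in the mitotic IP. In mitosis 3 were higher and 0 lower, both without and within the IP, and 0 differed in IP effect in either direction. Of all rows, 37% were lower in the interphase IP, and 31.7% lower and 32.8% higher in the mitotic IP. In mitosis 26.2% of all rows were higher and 25.5% lower without IP, and 35.8% and 25.6% within it. The IP effect differed in 47.1% of all rows. Leaving out each library gave 20 to 63 lower and 0 to 1 higher in the interphase IP, and 35 to 83 lower and 1 to 1 higher in the mitotic IP. For the difference in IP effect it gave 1 to 5 higher and 0 to 16 lower. In mitosis it gave 27 to 65 higher and 0 to 2 lower without IP, and 18 to 63 higher and 1 to 4 lower within the IP. The median difference in IP effect reversed to 0.33 without interphase IP replicate 1, 0.03 without mitosis replicate 1 of the group without IP, and 0.34 without mitosis IP replicate 2. With a library left out this median ran from -1.02 to 0.34, that of the mitotic IP from -2.06 to -0.76, and that of mitosis within the IP from 0.44 to 1.64. The last was 0.81 with a pseudocount of 10, 0.80 with quantile normalization, 0.94 with median centring and 1.30 in compact rows. The cause was not tested. Median centring moved the median of all rows by up to 0.14.

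With the replicate block, the IP of interphase had 69 lower members and that of mitosis 73, 68 were higher in mitosis without IP and 53 within the IP, and 4 had a higher and 4 a lower IP effect in mitosis. Over all 13471 rows these counts were, in the same order, 5157, 4480, 3825, 5093, 3988 and 2925. Of the 7 compact members, 5 were then higher in mitosis without IP. Same-numbered libraries deviated together with correlations of 0.088 to 0.53 over all rows and 0.27 to 0.74 over the members, but nothing in the labels says that a number marks a shared culture or day, and there are only 2 numbers, so the numbers were not taken to pair the libraries.

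With 2 libraries a group, precision rests on few residual degrees of freedom, and FPKM give no depth. Reads of host genes in wide rows, and in the compact rows inside TAF1D, could not be separated from those of the small RNA.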
